A study of Mus musculus with 17 samples.

Results

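Limb buds of mouse embryos carrying the duplication labelled Dup-C were compared with wild-type (WT) limb buds that carry a like amount of RNA from Pitx1, a transcription factor gene of the hindlimb. The comparison holds 4 libraries, Dup-C 1 and 2 and WT 1 and 3, of the 15 whose counts were analysed and the 17 samples labelled in the series. WT libraries were kept where Pitx1 reached 20 CPM (a gene's count divided by the library total and multiplied by 1000000). Pitx1 stood at 58.7 CPM in WT 1 and 68.5 CPM in WT 3, which were kept, and at 1.91 CPM in both WT 2 and WT 4, which were not. In Dup-C it was 86.9 and 66.1 CPM. Pitx1 chose the libraries, so its levels are a description and no test of it is given.

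The series measured poly(A)-selected RNA from E12.5 (embryonic day) limb buds of WT mice and of mice with structural variants at the Sox9/Kcnj locus. Besides 2 Dup-C and 4 WT libraries it holds 2 Dup-L, 2 deltaBor heterozygous, 1 deltaBor homozygous and 4 Dup-LdeltaBor libraries, which entered the fit so that all groups share 1 estimate of the spread. The columns taken as Dup-LdeltaBor are called Sox9DupLacZDel in the file headers and were assigned by that name. Their replicate names, R2 to R5, do not match the labels, and R4 and R5 carry the same library number. The E17.5 fingertip samples, 1 Dup-C and 1 WT, were not analysed here. The labels give neither the zygosity of Dup-C, nor strain, sex or fore- or hindlimb origin, nor whether the libraries of a group came from separate embryos, so p-values measure only the spread between these libraries, which may be technical.

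Sox9 encodes the transcription factor that starts cartilage formation, and its neighbour Kcnj2 encodes an inward-rectifier potassium channel. The genes lie in adjacent topologically associating domains, stretches of chromosome inside which enhancers contact promoters, with a boundary between them. As the study describes it, Dup-C spans that boundary and includes Kcnj2, and the question put to these libraries is which genes differ in level when the duplication is present. Bulk RNA from whole limb buds cannot tell fewer cells of a type from less RNA per cell.

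The start of Kcnj2 is shown because this gene carries the main difference. The 250 bases before its start, on the forward strand of chromosome 11 in RefSeq's GRCm38.p6 (chr11:111065914-111066163), read 5′ to 3′ with motif matches in capitals.
Kcnj2: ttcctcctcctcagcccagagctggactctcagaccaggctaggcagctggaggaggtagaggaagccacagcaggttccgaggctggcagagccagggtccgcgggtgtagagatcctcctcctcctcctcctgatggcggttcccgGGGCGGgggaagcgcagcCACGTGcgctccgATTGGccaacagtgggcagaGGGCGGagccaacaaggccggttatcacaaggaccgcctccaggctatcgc
Both strands were searched for 4 motifs, whose matches do not overlap here. The GC box GGGCGG occurred 2 times, and 32.7% of the 32851 promoter windows of this length hold it. The CCAAT box occurred 1 time, as ATTGG on the strand shown, and 33.8% of windows hold it. The E-box CACGTG occurred 1 time, against 6.02% of windows. The letters TATAAA were not in this window and are in 12.4% of all. G and C made up 65.6% of the Kcnj2 window, where the median window had 52.4%. A match describes the sequence and does not show a bound site.

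Library totals ran from 34486256 to 53711742 counts over the Dup-C and WT libraries. The matched WT libraries were not alike. The standard deviation (SD) of log2 differences over genes was 0.36 between WT 1 and WT 3, 0.25 between the Dup-C libraries, and 0.17 between Dup-C 1 and WT 1, so WT 1 lay nearer to Dup-C than to its own partner. WT 3 also differs from the other 3 in its library number, which falls with WT 4 in a second range of the file headers. Xist, the RNA of the inactive X chromosome, was 2550 CPM in Dup-C 1 and 2220 CPM in WT 1 but 1.28 CPM in Dup-C 2 and 0.391 CPM in WT 3. Each side therefore holds 1 library with high and 1 with low Xist. WT 1 stood apart in genes induced by interferon, whose summed level over a list of 16 chosen after seeing the data was 211 CPM in WT 1 and 52.0 to 93.6 CPM in the other 5 Dup-C and WT libraries.

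Limb identity was checked with genes the rule did not use. Tbx4, the hindlimb T-box gene, was 75.2 and 63.7 CPM in Dup-C, 63.2 CPM in WT 1 and 84.6 CPM in WT 3. The Dup-C values lay inside the WT range (log2 fold change -0.08 ± 0.13 SE, edgeR quasi-likelihood test, adjusted p = 0.834), while WT 2 and WT 4 were at 27.0 and 28.9 CPM. Tbx5, the forelimb T-box gene, was 109 and 97 CPM in Dup-C, 133 and 99.9 CPM in the matched WT, and 244 and 200 CPM in WT 2 and WT 4. It differed from the matched WT by -0.17 ± 0.15 SE on the log2 scale (edgeR adjusted p = 0.672). It was at 97 CPM or more in all 6 libraries, so none lacked it. Of the 4 forelimb genes listed, Tbx5 alone was lower in Dup-C, whichever WT libraries were used. Hoxc4, Hoxc5 and Hoxc6 went the other way. The median log2 difference of the 4 was 1.04 against WT 2 and 4, 0.60 against all WT and 0.27 against the matched WT. Both sides had high levels of Prrx1, a limb mesenchyme gene, with 666 and 674 CPM in Dup-C and 719 and 536 CPM in the matched WT.

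**Figure D1:**
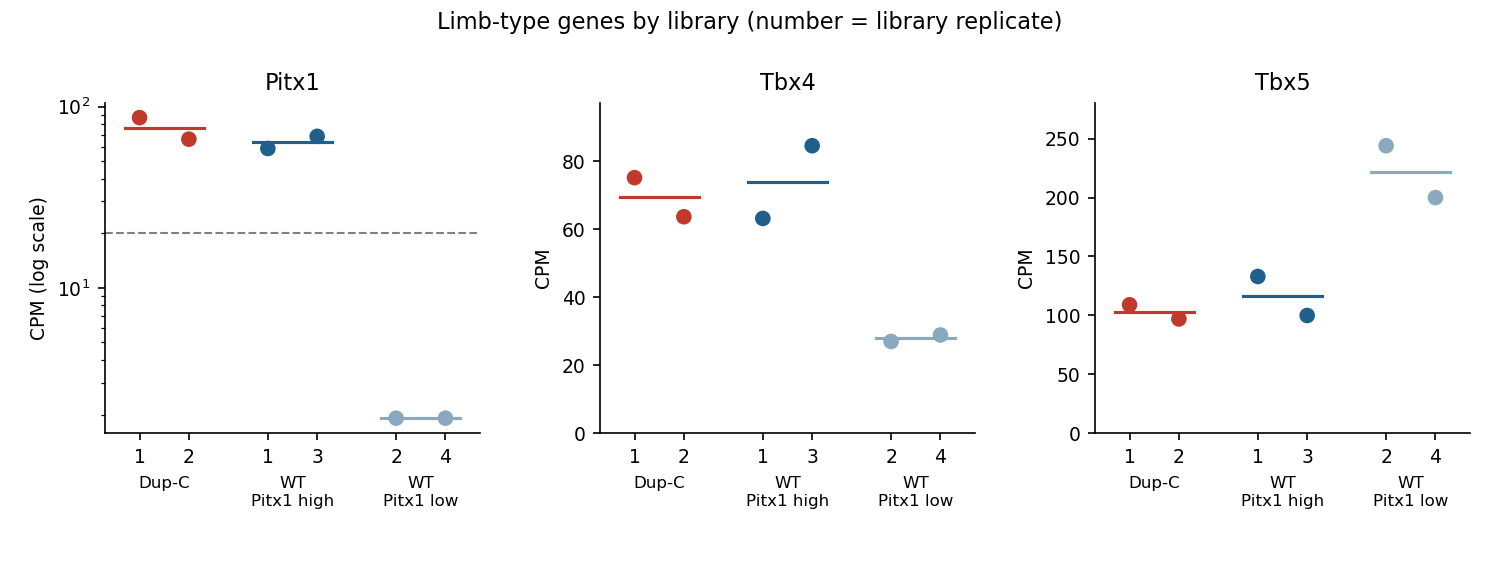
CPM of Pitx1 (log axis, with the rule's minimum of 20 CPM dashed), Tbx4 and Tbx5 in each Dup-C and WT library; points are libraries and bars are group means of 2. WT 1 and 3 lie nearer to Dup-C than WT 2 and 4 do in all 3 genes. WT 2 and 4 lie lower for Pitx1 and Tbx4 and higher for Tbx5.

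Kcnj2 rose in Dup-C against the matched WT. It was 86.5 CPM in Dup-C 1 and 71.9 CPM in Dup-C 2, against 25.7 CPM in WT 1 and 21.7 CPM in WT 3. Both Dup-C libraries lay far above both WT libraries, with means of 79.2 ± 10.4 and 23.7 ± 2.81 CPM (SD, n = 2 each). The fold change was 3.36 (95% interval 2.44 to 4.64), or 1.75 ± 0.22 SE on the log2 scale (edgeR adjusted p = 0.0264). The log2 difference was 1.89 against all 4 WT libraries and 2.05 against WT 2 and 4, which were at 22.6 and 18.4 CPM. In size it stayed between 1.51 and 1.87 under every alternative run for the matched comparison, but its adjusted p was above 0.05 in 8 of them, among them the fits with only the 4 libraries (0.101), a library-number term (0.15), GC content and length offsets (0.0907), and without Dup-C 1 (0.233), Dup-C 2 (0.115) or WT 3 (0.0684).

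Sox9 was 171 and 135 CPM in Dup-C and 159 and 133 CPM in the matched WT. The groups overlapped, with a log2 difference of 0.08 ± 0.17 SE and a 95% interval of -0.28 to 0.44 (edgeR adjusted p = 0.877); the sign turned with the library-number term (-0.07), with that and an Xist term (-0.04), and without Dup-C 1 (-0.08) or WT 3 (-0.04).

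The other genes of the locus gave no further call. The long noncoding RNA gene 2610035D17Rik, next beyond Sox9, was 23.7 and 18.6 CPM in Dup-C against 16.0 and 10.6 CPM in the matched WT. Its groups did not overlap (log2 difference 0.68 ± 0.18 SE, edgeR unadjusted p = 0.00197, adjusted p = 0.541), WT 2 and 4 at 17.8 and 16.6 CPM also lay below Dup-C, and without WT 1 its difference was 1.0 (adjusted p = 0.0138). BC006965, a transcript between Kcnj2 and Sox9, was 3.25 and 1.82 CPM in Dup-C, 4.19 and 3.17 CPM in the matched WT, and 10.2 and 9.19 CPM in WT 2 and 4.

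BC006965 is the locus gene whose value moved most with the choice of WT libraries. It fell against WT 2 and 4 (log2 difference -1.83, edgeR adjusted p = 0.0151) and stood at -1.31 against all WT (adjusted p = 0.251), but at -0.51 ± 0.27 SE against the matched WT, where the groups overlapped (adjusted p = 0.541). Map2k6, a stress kinase gene on the far side of Kcnj2, differed by 0.20 ± 0.13 SE (edgeR adjusted p = 0.573). Slc39a11, a zinc transporter gene, differed by -0.02 ± 0.12 SE (edgeR adjusted p = 0.969). Kcnj16, the potassium channel gene beside Kcnj2, had 0 counts in Dup-C 1 and in WT 3 and 1 count in each of Dup-C 2 and WT 1, so no difference was detectable at this depth. The count of 0 allows up to 0.0577 CPM in Dup-C 1 and 0.0559 CPM in WT 3, for counting error only.

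**Figure D2:**
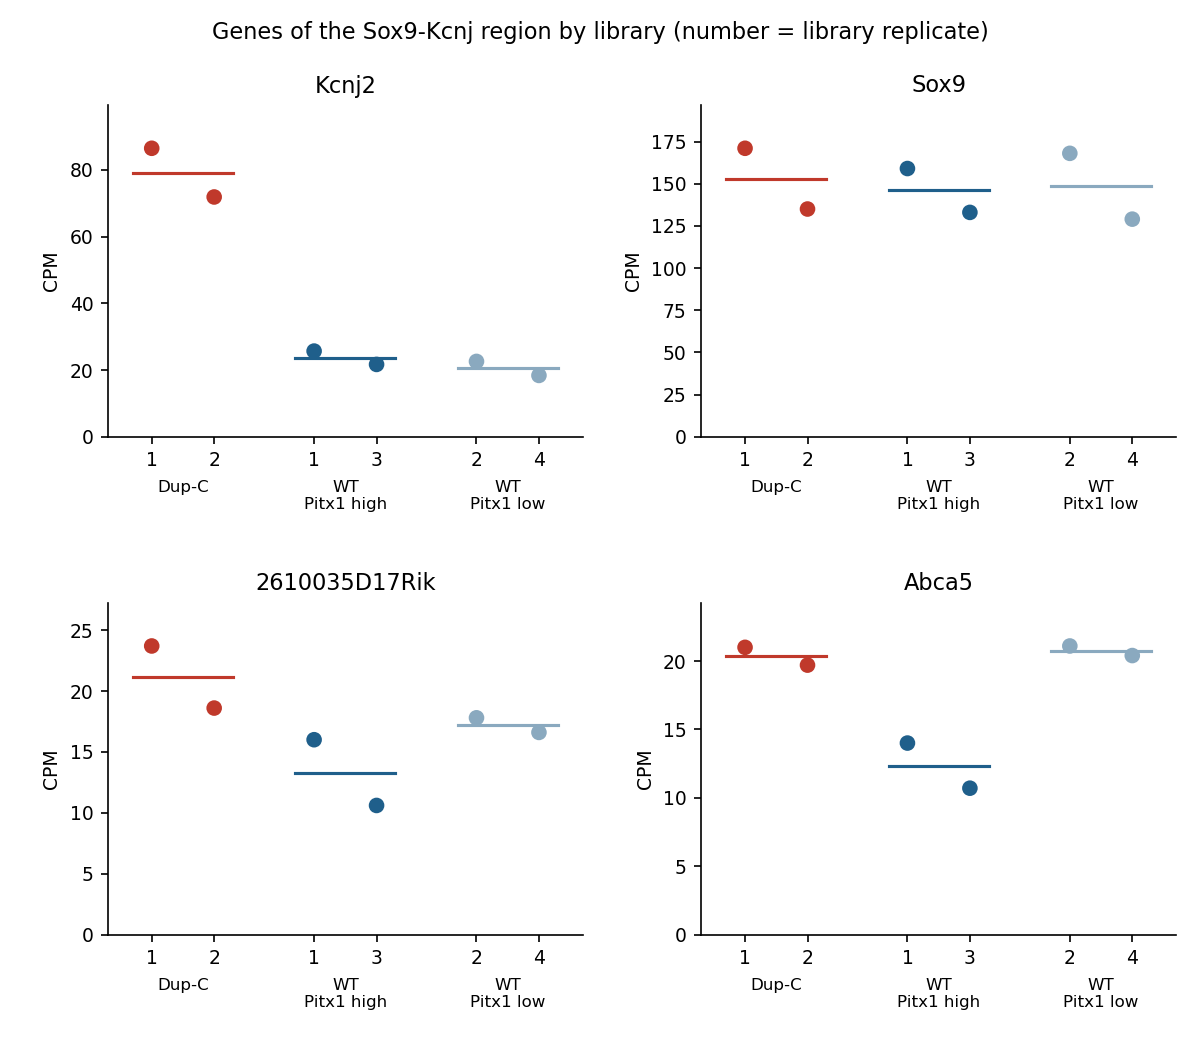
CPM of Kcnj2, Sox9, 2610035D17Rik and Abca5 in each library on axes from 0; points are libraries and bars are group means of 2. Kcnj2 in Dup-C stands above all 4 WT libraries, Sox9 overlaps, and Abca5 is lower in WT 1 and 3 but not in WT 2 and 4.

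Beyond Kcnj2, no gene passed the threshold. Of 17655 genes tested by edgeR, 1 passed an adjusted p of 0.05 (0.00566%), and the next smallest adjusted p was 0.541. At an unadjusted p under 0.05 there were 1595 genes (9.03%), 840 higher (4.76%) and 755 lower (4.28%) in Dup-C. DESeq2 called 3 genes: Kcnj2 and Abca5 higher and Mmrn1, an extracellular matrix glycoprotein gene, lower. Leaving out 1 library changed the count greatly: 1077 genes passed without WT 1 and 12 without WT 3, but 0 without Dup-C 1 or without Dup-C 2.

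Among the genes of smallest unadjusted p that were higher, Abca5, a lipid transporter gene on the Kcnj2 side of the locus, came next. It was 21.0 and 19.7 CPM in Dup-C and 14.0 and 10.7 CPM in the matched WT (log2 difference 0.73 ± 0.15 SE, edgeR unadjusted p = 2.4e-04, adjusted p = 0.541). The groups did not overlap, but WT 2 and 4, at 21.1 and 20.4 CPM, lay beside Dup-C. Krt10, a keratin gene, was 9.77 and 10.1 CPM in Dup-C, 6.84 and 6.72 CPM in the matched WT, and 9.01 and 8.41 CPM in WT 2 and 4.

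Cisd2, which encodes an iron-sulfur protein of organelle membranes, was 64.0 and 66.6 CPM in Dup-C against 50.1 and 48.9 CPM in the matched WT. Map2, a neuronal microtubule protein gene, was 2.73 and 2.67 CPM in Dup-C against 1.65 and 0.987 CPM. Neither gene separated Dup-C from WT 2 and 4, which were at 65.8 and 67.4 CPM for Cisd2 and at 2.83 and 2.32 CPM for Map2. Of these 4 genes next after Kcnj2 in p, only Krt10 had both Dup-C values above all 4 WT libraries, which 8.05% of all genes did.

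The 5 lower genes of smallest p also missed the adjusted threshold (0.541 each by edgeR). Olfml2a, which encodes a secreted olfactomedin-like protein, was 11.6 and 9.78 CPM in Dup-C, 15.3 and 19.9 CPM in the matched WT, and 18.9 and 18.7 CPM in WT 2 and 4. All 4 WT libraries lay above Dup-C, as for 11.5% of all genes. The log2 difference was -0.71 in each of the 3 comparisons, which share the Dup-C libraries. Olfml2a was also low in Dup-L (9.81 and 9.86 CPM), deltaBor heterozygous (8.86 and 10.3 CPM) and deltaBor homozygous (7.51 CPM) libraries. It was 16.8 to 21.9 CPM in Dup-LdeltaBor.

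Ifitm3, an interferon-induced membrane protein gene, was 20.2 and 14.8 CPM in Dup-C and 31.8 and 32.8 CPM in the matched WT, but WT 2 was at 20.4 CPM. The unnamed transcript C130046K22Rik was 2.25 and 2.18 CPM in Dup-C against 4.49 and 5.29 CPM, with WT 2 and 4 at 4.03 and 2.81 CPM. Cyfip2, a regulator of actin assembly, was 57.5 and 59.3 CPM against 76.0 and 105 CPM. For Cyfip2 and AK140147_gene (5.81 and 6.47 CPM in Dup-C, 9.65 and 14.8 CPM in the matched WT) the values of WT 2 and 4 lay near Dup-C, at 69.1 and 63.6 CPM and at 6.58 and 5.86 CPM.

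**Figure D3:**
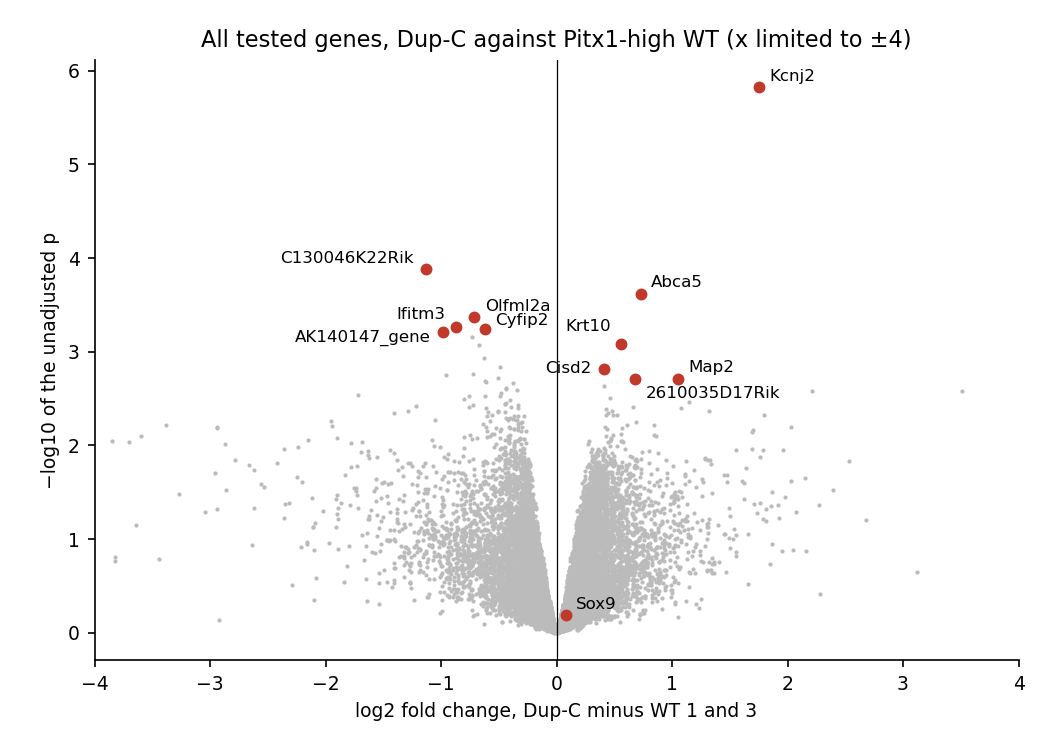
Log2 fold change (Dup-C minus WT 1 and 3) against -log10 of the unadjusted edgeR p for 17655 genes; 14 genes beyond ±4 on the x axis are not drawn. Kcnj2 stands alone at the top, and the labelled genes below it, among them the 4 higher and 5 lower genes next in p, did not pass after adjustment.

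Gene order around the locus gives a view that does not depend on function. Of the 42 tested genes nearest to Kcnj2 and Sox9 on chromosome 11, Kcnj2 left out, 17 had a positive and 25 a negative log2 difference, with a median of -0.06, where the median over all genes tested was 0.00. Those with an unadjusted p under 0.05 were 2, Abca5 and 2610035D17Rik (9.03% of all genes). The same 2 genes were the ones with both Dup-C libraries above both matched WT libraries (18.1% of all genes), and 7 had both below (17.8%).

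**Figure D4:**
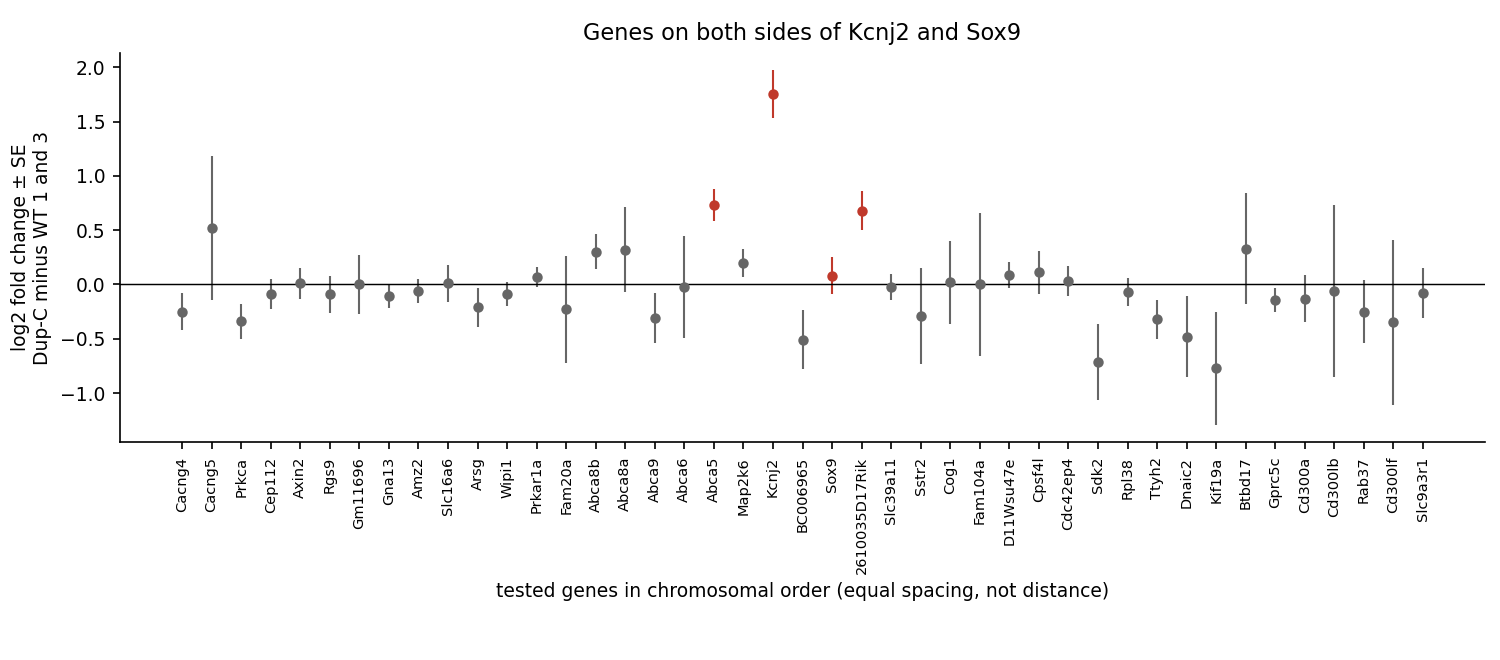
Log2 difference ± SE for the tested genes on both sides of Kcnj2 and Sox9, in chromosomal order and equally spaced. Kcnj2 lies at 1.75, Abca5 and 2610035D17Rik near 0.7, and Sox9 near 0.

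The flanking list of chromosome 11 genes, 24 tested, had a median of -0.04 against the matched WT and -0.13 against all WT, and by edgeR 0 passed, with 1 at an unadjusted p under 0.05, Abca5, which DESeq2 called. Its most abundant members were Prkar1a, a regulatory subunit of protein kinase A (log2 difference 0.07 ± 0.09 SE), and Rpl38, a ribosomal protein (-0.07 ± 0.13 SE). Both overlapped between the groups. Of the 12 tested members of the inward-rectifier channel family only Kcnj2 passed by edgeR. The family's median was -0.06. Kcnj8, another channel of the family, chosen after its values were seen, was 0.308 and 0.0770 CPM in Dup-C, 0.417 CPM in WT 1 and 2.59 CPM in WT 3. Dup-C lay below both WT libraries, with WT 1 nearer to Dup-C 1 than to WT 3. The log2 difference of Kcnj8 was -2.86, from 16 and 3 counts in Dup-C and 22 and 139 in the matched WT. After adjustment edgeR called no difference. At an unadjusted p under 0.05, 1 of the 12 family members was higher (4.76% of all genes) and 1 lower (4.28%).

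The genes that go with Pitx1 show how far the choice of WT libraries changed the picture. Pitx1 itself is left out here, since it divided the WT libraries. In the 7 other hindlimb genes (Tbx4, Isl1 and the HoxC genes Hoxc9 to Hoxc13) the median log2 difference was 1.02 against all WT, 1.75 against WT 2 and 4, and 0.33 against the matched WT. Against WT 2 and 4, 4 of them (Tbx4, Isl1, Hoxc10 and Hoxc11) passed higher by edgeR, where 0.261% of all genes did, but the division of the WT libraries by Pitx1 fixes part of this. Against the matched WT 0 of 7 passed by edgeR or DESeq2, and 0 had an unadjusted p under 0.05.

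Among these 7 hindlimb genes, both Dup-C libraries lay above both matched WT libraries in 2 (18.1% of all genes). They lay below both in 1 (17.8% of all genes). Hoxc10, which takes part in hindlimb patterning, was 9.35 and 11.8 CPM in Dup-C, 9.19 CPM in WT 1 and 5.4 CPM in WT 3. Its Dup-C values lay above both, with WT 1 close to Dup-C 1. Isl1, which starts the hindlimb bud, was 2.54 and 2.75 CPM against 2.16 and 2.07 CPM, so that both WT libraries lay close together below Dup-C. Hoxc12 went the other way, with 3.67 and 4.19 CPM in Dup-C below 4.32 and 5.03 CPM in the matched WT. Hoxc9, Hoxc11 and Hoxc13 overlapped between the groups, with log2 differences of 0.55, 0.46 and 0.22. Without WT 3 the median of the 7 genes was 0.16 and without WT 1 it was 0.70.

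Lists of other cell types and programmes were compared in the same way, by the median log2 difference of their members, beside a median over all genes of 0.00 against the matched WT and -0.01 against all WT. Against the matched WT no list member other than Kcnj2 passed by edgeR in any of the 28 lists. At an unadjusted p under 0.05, the counts given below are to be read against 4.76% higher and 4.28% lower over all genes. Whether a list's shift differed between the comparisons was not tested, since both use the same Dup-C libraries.

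After the hindlimb genes, the median that moved most toward 0 among the lists described was that of cartilage genes, the targets and partners of Sox9. The median of 20 tested members was -0.62 against all WT, with 8 members lower at an unadjusted p under 0.05 (7.55% of all genes), and -0.14 against the matched WT, with 0. The summed level was 2240 and 1310 CPM in Dup-C 1 and 2, 1940 and 1710 CPM in the matched WT, and 3160 and 2990 CPM in WT 2 and 4. Dup-C 1 thus exceeded both matched WT libraries and Dup-C 2 lay below them, and the median was -0.74 without Dup-C 1 and 0.16 without Dup-C 2.

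Col2a1, the main cartilage collagen, was 626 and 383 CPM in Dup-C and 601 and 422 CPM in the matched WT. The groups overlapped completely in range (log2 difference -0.01 ± 0.28 SE, edgeR adjusted p = 0.991). Wwp2, a ubiquitin ligase gene active in cartilage, was 407 and 194 CPM against 283 and 357 CPM, and WT 2 and 4 were higher at 616 and 675 CPM. Both cartilage genes differed more between Dup-C 1 and 2 than between the group means. Both Dup-C libraries lay below both matched WT libraries in 2 of the 20 genes, where 17.8% of all genes did.

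Skeletal muscle genes behaved alike, with a median of -0.59 against all WT and -0.25 against the matched WT over 27 genes. At an unadjusted p under 0.05, 0 were lower in either comparison. Actc1, an actin of early muscle, was 146 and 148 CPM in Dup-C, 147 CPM in WT 1 and 221 CPM in WT 3. Myh3, embryonic myosin, was 140 and 136 CPM against 149 and 216 CPM. Dup-C and WT 1 were close for both and WT 3 stood higher, and without WT 3 the list's median was 0.02.

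The positive shifts of the comparison with all WT were smaller too. Erythroid genes had a median of 0.44 against all WT and 0.15 against the matched WT over 12 genes, with summed levels of 4250 and 4070 CPM in Dup-C, 3660 and 4940 CPM in the matched WT, and 1880 and 3280 CPM in WT 2 and 4. In this sum, to which Hbb-y contributed most, both Dup-C libraries lay between the matched WT libraries. By gene, both Dup-C libraries lay above both matched WT libraries in 4 of 12 (18.1% of all genes). They lay above all 4 WT libraries in 4 (8.05% of all genes). The list's median stayed between 0.12 and 0.30 under every alternative for which it was computed. The embryonic globin Hbb-y was 3130 and 2890 CPM in Dup-C against 2570 and 4020 CPM, and Hba-x was 738 and 700 CPM against 729 and 664 CPM.

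For the apical ridge and surface ectoderm, the outer layer that directs limb outgrowth, the median was 0.28 against all WT and 0.04 against the matched WT over 25 genes. Of the 25 genes, 17 had a positive and 8 a negative log2 difference against the matched WT. Both Dup-C libraries lay below both matched WT libraries in 4 (17.8% of all genes) and above both in 0 (18.1%). Its 2 most abundant members, the keratins Krt5 and Krt14, went the other way from the list's former shift. Krt5 was 293 and 306 CPM in Dup-C against 347 and 483 CPM, and Krt14 was 158 and 174 CPM against 192 and 231 CPM. Both keratins lay below both matched WT libraries, with log2 differences of -0.46 ± 0.19 and -0.33 ± 0.16 SE (edgeR adjusted p = 0.541 for each). WT 2 and 4, at 291 and 363 CPM for Krt5, did not separate from Dup-C.

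Cell cycle genes had a median of 0.11 against all WT and 0.00 against the matched WT over 23 genes. Top2a, which untangles replicated DNA, was 981 and 1170 CPM in Dup-C against 1040 and 912 CPM, and Mki67, a proliferation marker, was 929 and 1010 CPM against 998 and 779 CPM. Both overlapped between the groups. Cytosolic ribosomal protein genes had a median of 0.15 against all WT and 0.04 against the matched WT, and nuclear-encoded respiratory chain genes 0.09 and 0.01. Members were still uneven against the matched WT. At an unadjusted p under 0.05, 5 of 48 ribosomal and 7 of 48 respiratory chain genes were higher (4.76% of all genes) and 0 of either lower, and 15 and 13 lay above both matched WT libraries (18.1% of all genes).

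**Figure D5:**
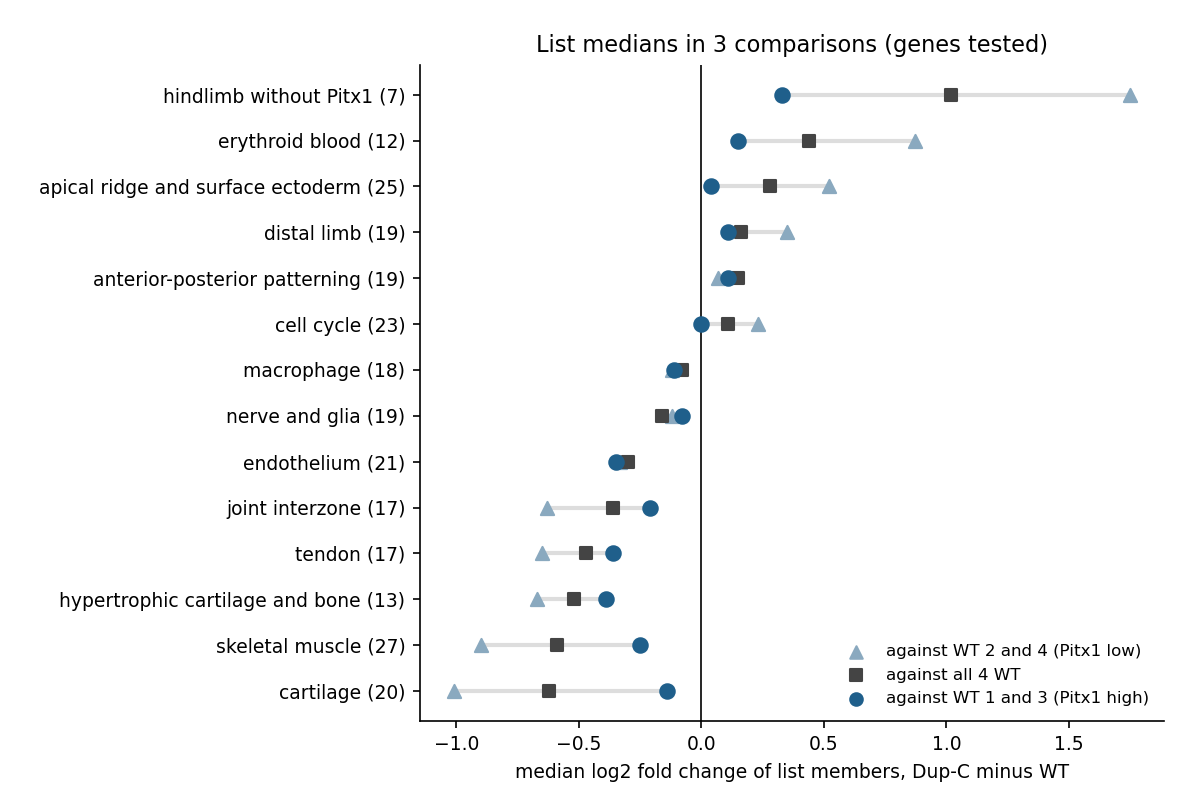
Median log2 difference of Dup-C over the tested members of 14 lists (number tested in brackets) against WT 2 and 4 (triangles), all 4 WT (squares) and WT 1 and 3 (circles). Hindlimb (Pitx1 left out), cartilage, muscle and erythroid medians lie nearer 0 in the matched comparison, while the endothelium median stays between -0.35 and -0.30.

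Some shifts stayed when the WT libraries were matched. Endothelial genes, which line blood vessels, had a median of -0.35 against the matched WT, -0.33 against WT 2 and 4 and -0.30 against all WT, over 21 genes. Both Dup-C libraries lay below both matched WT libraries in 12 of 21 genes (17.8% of all genes) and below all 4 WT libraries in 9 (11.5% of all genes). At an unadjusted p under 0.05, 5 were lower and 0 higher, and by edgeR and DESeq2 0 passed after adjustment.

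Cdh5, the junction protein of endothelium, was 82 and 62.5 CPM in Dup-C against 88.5 and 119 CPM in the matched WT and 104 and 96.0 CPM in WT 2 and 4. All 4 WT libraries lay above Dup-C (log2 difference -0.51 ± 0.15 SE, edgeR unadjusted p = 0.0044, adjusted p = 0.541). Ets1, a transcription factor of vessel cells, was nearly level, with 80.1 and 79.7 CPM against 84.3 and 82.7 CPM. The list's summed level was 597 and 477 CPM in Dup-C 1 and 2, 607 CPM in WT 1 and 751 CPM in WT 3.

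The endothelial shift was uneven between libraries, since Dup-C 1 and WT 1 were nearly equal and Dup-C 2 and WT 3 stood at the ends. The median stayed negative under every alternative for which list medians were computed, at -0.19 without Dup-C 2, -0.22 without WT 3, -0.44 without WT 1 and -0.57 without Dup-C 1. Of the 21 genes, 1 (Erg) is also in the joint list.

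Tendon genes had medians of -0.47 against all WT and -0.36 against the matched WT over 17 genes, and 7 of them lay below both matched WT libraries (17.8% of all genes). At an unadjusted p under 0.05, 4 were lower and 1 higher. Col5a2, a fibrillar collagen, was 296 and 246 CPM in Dup-C against 314 and 342 CPM, and Col5a1, its partner chain, was 316 and 225 CPM against 322 and 320 CPM. Both lay below the matched WT, Dup-C 1 only narrowly. Without WT 3 the tendon median was -0.08 and without Dup-C 2 it was -0.16.

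Genes of hypertrophic cartilage and bone had medians of -0.52 against all WT and -0.39 against the matched WT over 13 genes, with 7 below both matched WT libraries (17.8% of all genes). Col1a1, the main bone collagen, was 350 and 211 CPM in Dup-C against 374 and 597 CPM, and Col1a2, its partner chain, was 979 and 751 CPM against 1020 and 1260 CPM. Both lay below the matched WT (log2 differences -0.78 ± 0.34 and -0.39 ± 0.17 SE, edgeR adjusted p = 0.541 for each). The median stayed between -0.57 and -0.26 under every alternative for which it was computed, the lowest without Dup-C 1 and the highest without Dup-C 2.

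Joint interzone genes had medians of -0.36 against all WT and -0.21 against the matched WT over 17 genes. Col3a1, a collagen of loose mesenchyme, was 1030 and 817 CPM against 985 and 1260 CPM, and Sfrp2, a secreted Wnt modulator, was 126 and 85.8 CPM against 93.0 and 153 CPM. Both overlapped. The median was 0.00 without Dup-C 2 and 0.03 without WT 3.

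Distal limb genes had a median of 0.35 against WT 2 and 4, 0.16 against all WT and 0.11 against the matched WT over 19 genes. Positive differences numbered 16 of 19 against WT 2 and 4 and 13 of 19 against the matched WT. Hoxd13, a gene of the digit territory, was 692 and 710 CPM in Dup-C against 676 and 517 CPM (log2 difference 0.25 ± 0.15 SE, edgeR adjusted p = 0.558). Dup-C lay above both, with WT 1 close to Dup-C 1. Anterior-posterior patterning genes had medians of 0.07, 0.15 and 0.11 in the same order over 19 genes. Against the matched WT 13 of the 19 were positive and 6 negative, and its 2 most abundant members were among the 6. Gli3, a transcription factor of the hedgehog pathway, was 274 and 237 CPM in Dup-C against 313 and 389 CPM in the matched WT, and Bmp7, a secreted growth factor, was 107 and 93.9 CPM against 121 and 212 CPM. Both lay below all 4 WT libraries, with WT 2 and 4 at 328 and 334 CPM for Gli3 and at 141 and 292 CPM for Bmp7. EdgeR gave an adjusted p of 0.541 for each. Of the 19 genes, 3 lay below all 4 WT libraries (11.5% of all genes). Bmp7 was at most 105 CPM in the Dup-L and deltaBor libraries. It was 284 to 327 CPM in Dup-LdeltaBor, whose library numbers fall in the second range with WT 3 and WT 4. The log2 difference of Bmp7 ran from -1.07 to -0.25 leaving out 1 library. The cause was not tested.

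Markers of the remaining cell types were near level as lists. Macrophage genes had a median of -0.08 against all WT and -0.11 against the matched WT over 18 genes, and nerve and glia genes -0.16 and -0.08 over 19. Csf1r, the growth factor receptor of macrophages, was 15.7 and 12.6 CPM in Dup-C against 16.3 and 25.2 CPM, and Dab2, an endocytic adaptor, overlapped at 105 and 78.0 CPM against 96.6 and 96.9 CPM. Ngfr, a neurotrophin receptor, was 55.5 and 47.9 CPM against 66.4 and 89.8 CPM, below all 4 WT libraries, while Erbb3, a Schwann cell receptor, overlapped at 34.9 and 40.2 CPM against 41.7 and 38.3 CPM.

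Against WT 2 and 4, the libraries that the rule left out, 118 genes passed by edgeR (0.668%), 46 higher (0.261%), Pitx1 by construction among them, and 72 lower (0.408%). Of these, Kcnj2 was the 1 that also passed against the matched WT, and 30 of the 118 had an unadjusted p under 0.05 there. Against all 4 WT together 1 gene passed (0.00566%), Kcnj2, and 2933 had an unadjusted p under 0.05 (16.6%), 1600 higher (9.06%) and 1333 lower (7.55%). These comparisons share the Dup-C libraries, and the one with all WT shares WT libraries with both others, so their counts are not independent of each other. The mean size of the log2 difference over all genes was 0.27 against the matched WT, 0.37 against WT 2 and 4 and 0.29 against all WT.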

How the data were processed

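Poly(A)-selected RNA was prepared with the TruSeq RNA V2 kit, which does not mark strand, per the labels' protocols. The submitters' processing notes name STAR, DESeq2, bedtools 2.17.0 and the mm9 build; which tool counted the reads, and on which annotation, is not given there. The authors deposited whole-number counts per gene for 15 libraries, and the authors' FPKM values for the same libraries served as an alternative.

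Counts of all 15 libraries were fitted with edgeR 4.0.16 in R 4.3.3 (TMM, filterByExpr, robust quasi-likelihood test, two-sided, Benjamini-Hochberg over 17655 genes), with WT divided by Pitx1 into WT 1 and 3 and WT 2 and 4, which gives 7 groups and 8 residual degrees of freedom; WT stayed 1 group for the comparison with all WT. CPM are counts over the library total. The scripts were tested on simulated data. Alternatives used DESeq2 1.42.0, limma 3.58.1 on log2(FPKM + 1) or log2(FPKM + 0.1) with a minimum mean of 1, RLE factors, no filter, terms for library-number range and Xist (above 100 CPM), offsets for GC content and length (91.4% of genes have both), and leaving out each library. Gene order and the promoter come from RefSeq's GRCm38.p6, by symbol, with no coordinates converted.

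The members and gene lists were chosen with earlier results of these data known. Genes were named as: the tested locus genes, Pitx1, Tbx4, Tbx5 and Xist; genes past the threshold; the 5 genes of smallest unadjusted p in a direction with at least 1 CPM where fewer than 5 passed; and the 2 most abundant members of each list described. The hindlimb members, the forelimb members Hoxc4, Hoxc5 and Hoxc6, Kcnj8 and the genes in the closing section were named after their values were seen.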

Additional observations from a re-analysis of the deposited data

Results flagged for a closer look

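In a group of 4, a library was noted where its gap to the nearest other exceeded Dixon's 95% critical share of the group's range. Chance does this in about 1 of 20 groups. In the WT libraries 7 of 57 genes examined met it. The 57 include genes chosen after their values were seen, so the 7 cannot be set against the 1 in 20. Of the 7, 5 concern WT 1. Xist was 2220 CPM in WT 1 and 0.391 to 1.05 CPM in the other WT libraries. Ifit1, an interferon-induced RNA-binding protein gene, was 12.2 CPM in WT 1 and 0.406 to 0.637 CPM in the others. Mx1, an antiviral GTPase gene, was 3.53 CPM in WT 1 and 0.130 to 0.206 CPM in the others. Isg15, a ubiquitin-like protein gene induced by interferon, was 7.94 CPM in WT 1 and 0.298 to 0.562 CPM in the others. Top2a was 1040 CPM in WT 1 and 912 to 913 CPM in the others.

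Ifitm3 was 20.4 CPM in WT 2 and 31.8 to 34.1 CPM in the other WT libraries, which leaves WT 2 at the level of Dup-C 1. RP23-282C23.3, a transcript with no named function, was 10.5 CPM in WT 3 and 0.145 to 0.474 CPM in the others. Ifit1, Mx1, Isg15 and RP23-282C23.3 were chosen after their values were seen.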

How the results depend on the processing

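The Kcnj2 difference kept its sign under all alternatives, but its side of the threshold did not hold. It was 1.75 with only the 4 libraries (edgeR adjusted p = 0.101) and 1.63 with GC content and length offsets (0.0907). With the library-number term it was 1.62 (0.15), and with that and an Xist term 1.65 (0.184). The library-number term is called batch below, though no label or header names a batch. Kcnj2 was 1.71 by limma on FPKM with pseudocount 0.1 (adjusted p = 0.0511), and 1.64 to 1.87 leaving out 1 library. Genes past the threshold, 1 in the reported fit, numbered 0 with only the 4 libraries (362 at an unadjusted p under 0.05), 0 with the batch term (539), 3 with the Xist term, 0 with GC content and length offsets (1034), 3 by DESeq2 and also when adjusted over all genes, 0 by limma with pseudocount 0.1 (1207), 5 with no FPKM filter, and 0 to 1077 leaving out 1 library. With all WT they numbered 24 by DESeq2 and 1 to 1640 leaving out 1 library, the most without WT 1. A library left alone on its side was assumed to vary like the other groups. Against WT 2 and 4 they numbered 263 with no count filter, 17 with the batch term and 2 to 933 leaving out 1 library, where Kcnj2 was 1.93 to 2.23. These last settings, batch with Xist, the hindlimb list without Pitx1, and DESeq2 adjusted over all genes were added after seeing the data.

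Of the locus genes, 2610035D17Rik ranged from 0.42 to 1.0 leaving out 1 library, Sox9 from -0.08 to 0.21 and Slc39a11 from -0.10 to 0.07. With the batch term signs turned for Sox9 (-0.07), Slc39a11 (0.05), Tbx4 (0.07), Xist (-0.58), Rpl38 (0.11), Wwp2 (0.04), Sfrp2 (0.05), Prrx1 (-0.05) and Hbb-y (0.29). With batch and Xist terms they turned for Sox9 (-0.04), Slc39a11 (0.05), Tbx4 (0.07), Rpl38 (0.07), Wwp2 (0.11), Sfrp2 (0.08), Prrx1 (-0.05) and Hbb-y (0.32). With GC content and length offsets they turned for Slc39a11 (0.07), Tbx4 (0.02), Col2a1 (0.13), Wwp2 (0.02) and Erbb3 (0.05). Leaving out 1 library, signs turned within Tbx4 (-0.28 to 0.15), Tbx5 (-0.35 to 0.05), Xist (-9.72 to 11.64), Rpl38 (-0.27 to 0.17), Col2a1 (-0.38 to 0.27), Wwp2 (-0.69 to 0.33), Sfrp2 (-0.53 to 0.20), Prrx1 (-0.08 to 0.33), Actc1 (-0.58 to 0.02), Hbb-y (-0.41 to 0.25), Hba-x (0.00 to 0.12), Dab2 (-0.27 to 0.09), Erbb3 (-0.22 to 0.04), Top2a (-0.01 to 0.30) and Mki67 (-0.02 to 0.33). The cause was not tested.

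No paired analysis was possible because Dup-C (1 and 2) and the matched WT (1 and 3) share only 1 replicate number. Against all WT, the fit with the replicate block called 0 genes (403 at an unadjusted p under 0.05) and gave Kcnj2 a log2 difference of 1.76 (edgeR adjusted p = 0.0762); deviations of same-numbered libraries correlated at -0.162 and -0.117 across genes, so the numbers were not taken as pairs. GC content and length accounted for 7.8% of the variance of the log2 differences over genes, whose medians ran from 0.19 in the fifth of genes with the least GC to -0.10 in the fifth with the most. With 2 libraries a side, precision is set by the number of libraries rather than by depth, except for genes of few counts such as Kcnj16 and Kcnj8.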

Other observations

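Mmrn1, chosen after its values were seen, was not detected in part of these libraries. It had 0 counts in Dup-C 1, Dup-C 2 and WT 1, and was 14.1 CPM in WT 3, 6.26 CPM in WT 2 and 13.7 CPM in WT 4. It was at 4.39 CPM or more in each of the remaining 9 libraries of the series. The count of 0 for Mmrn1 allows up to 0.0577, 0.0770 and 0.0569 CPM in Dup-C 1, Dup-C 2 and WT 1.

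WT 3 stood apart in other genes, also chosen after their values were seen. The unnamed gene ENSMUSG00000073777 had 0 counts in WT 3 (at most 0.0559 CPM) and was 59.3 to 152 CPM in the other 14 libraries. Fbxo44, which encodes a ubiquitin ligase subunit, was 1.12 CPM in WT 3 and 1.32 to 1.55 CPM in the 3 deltaBor libraries, against 10.7 to 23.6 CPM in all others. RP23-282C23.3 was 10.5 CPM in WT 3 and 21.5 to 29.4 CPM in the deltaBor libraries, and at most 0.616 CPM in all others. These genes were among the leading calls when WT 1 was left out, so that WT 3 alone stood for the matched WT.

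Leaving out WT 3 keeps the first library-number range alone, and the 12 genes that then passed were all lower in Dup-C. The 10 with the smallest p were Ifit1, Oasl1, Cxcl10, Mx2, Irgm2, Mx1, Igtp, Gm4951, Usp18 and Ifih1, and all of these but Gm4951, whose role is not given here, are known to be induced by interferon. Kcnj2 was 1.64 higher on the log2 scale in that fit (edgeR adjusted p = 0.0684).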
